A study of Mus musculus with 10 samples.

Results

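The mouse genes numbered Zfp900 to Zfp999 encode zinc finger proteins, most of them of the KRAB type. They were taken as every row of the 10 gene tables whose symbol is Zfp followed by a 3-digit number that starts with 9, which gave 64 of 35087 gene symbols. The set was picked because Zfp950 was higher in mice injected with N-acetyl-L-cysteine (NAC), which acts as an antioxidant and feeds cells cysteine, than in mice given saline. The NAC values of Zfp950 are therefore a description, and no test of NAC against saline is offered as support for any member. The symbols run from Zfp930 to Zfp995, and the members were named by number, not by sequence.

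Granulosa cells, the somatic cells that surround and feed the oocyte in an ovarian follicle, were captured by laser microdissection from wild-type C57B6/J females aged 3 weeks. Both groups had intraperitoneal injections on 3 consecutive days, either 150 mg/kg NAC (4 libraries) or saline (6 libraries), and ovaries were taken on day 4. Polyadenylated RNA was amplified and sequenced by GEO-seq, a method for small captured tissue areas. The labels give batch 1 for every library and tie none to an animal, so differences are set against the spread between libraries, which may be technical.

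KRAB zinc finger proteins bind DNA through a row of zinc fingers, each a short loop held by a pair of cysteines and a pair of histidines around a zinc ion. Their KRAB domain recruits the scaffold protein TRIM28, which brings the histone methyltransferase SETDB1 and other silencing factors to the bound site. Many of these proteins silence transposable elements, and their genes lie in clusters that have expanded by duplication, so neighbouring members often share long stretches of sequence. The function of most single members is not known.

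The label was checked on the annotated coding sequences of GRCm38 (GENCODE). Of the 64 members, 63 are annotated as protein-coding and Zfp939 as a transcribed pseudogene. A core KRAB pattern was found in 57, and 60 held at least 1 finger with the spacing of cysteines and histidines searched for. The 7 without the KRAB pattern were Zfp939, Zfp949, Zfp954, Zfp956, Zfp957, Zfp972 and Zfp974, which says only that this pattern is not in their annotated sequence. Members with fingers had a median of 11, from 2 in Zfp993 to 21 in Zfp974, and Zfp950 had 17 in 609 coding residues.

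One finger from each of 5 members is shown, because the sequences set both how well reads can be told apart and the GC content that runs through the results. Each is the second finger of the gene's longest annotated coding sequence, 84 bases read 5′ to 3′ on the gene's strand, taken from GENCODE transcripts of GRCm38. Capitals mark the codons of the cysteines and histidines that hold the zinc. The intervals are chr19:61120164-61120247 (minus strand) for Zfp950, chr5:110008837-110008920 (plus) for Zfp932, chr2:176530909-176530992 (plus) for Zfp967, chr2:175693710-175693793 (minus) for Zfp969 and chr6:47963771-47963854 (plus) for Zfp956.
Zfp950: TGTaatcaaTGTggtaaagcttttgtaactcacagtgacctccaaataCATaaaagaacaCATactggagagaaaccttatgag
Zfp932: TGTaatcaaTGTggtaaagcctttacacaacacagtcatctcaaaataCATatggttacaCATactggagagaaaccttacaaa
Zfp967: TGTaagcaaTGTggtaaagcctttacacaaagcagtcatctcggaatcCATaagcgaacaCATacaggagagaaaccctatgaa
Zfp969: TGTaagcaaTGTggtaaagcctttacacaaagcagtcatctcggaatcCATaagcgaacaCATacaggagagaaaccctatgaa
Zfp956: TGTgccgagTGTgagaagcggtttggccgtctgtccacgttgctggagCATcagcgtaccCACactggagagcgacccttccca

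The fingers of Zfp967 and Zfp969 differ at 0 of 84 bases although the genes are separate loci. The finger of Zfp950 differs from that of Zfp932 at 17 bases, from that of Zfp967 at 19 and from that of Zfp956 at 44. Their GC content is 35.7% in Zfp950, 34.5% in Zfp932, 41.7% in Zfp967 and Zfp969 and 60.7% in Zfp956. Over whole transcripts the members had a median GC content of 38.6% (33.2% in Zfp931 to 53.9% in Zfp956), against 49.4% over the 10851 of 10945 tested genes that have a GC value.

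Shared sequence limits which members can be counted. The share of a gene's 31-base words that also occur in another gene, on either strand, ranged from 1.34% in Zfp949 to 100% in Zfp935, Zfp967 and Zfp969, with a median of 34.3%. It was at least 50% in 21 members, which together had 541 estimated reads over the 10 libraries. The 43 members below that share had 4782. In 189 of 471 member values above 0 the estimate was not a whole number (beyond 0.001), which happens when reads are split between genes. Zfp967, Zfp987 and Zfp988 rounded to 0 reads in every library, with estimates of at most 0.5 of a read in any of them, and for such copies a low value can reflect how shared reads were assigned. Zfp932, which together with its near copy Gm15446 is known to repress endogenous retroviruses, shares 44.2% of its words with Gm15446 (97.4% identity over 1761 bases), so its reads are uncertain. Zfp960 shares 86.8% with Zfp97, and Zfp993 86.9% with Zfp991.

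**Figure D1:**
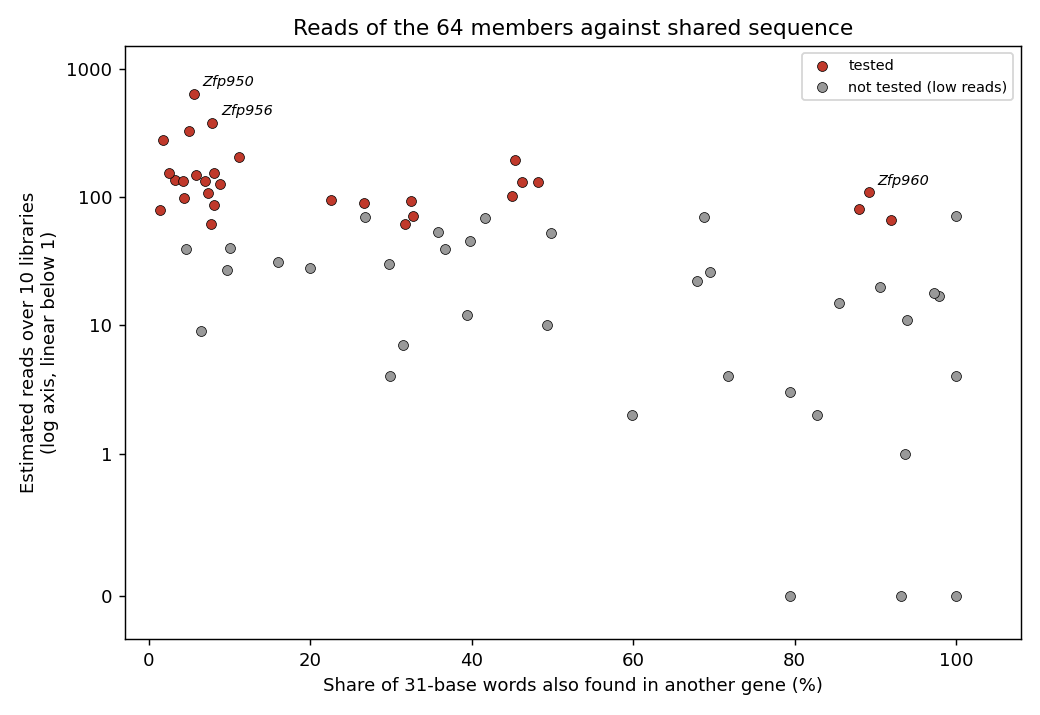
Estimated reads of each of the 64 members summed over 10 libraries (vertical log axis, linear below 1) against the share of its 31-base words also found in another gene (horizontal axis, %). Red points are members that passed the low-count filter and grey points those that did not. Zfp950 has the most reads and 5.53% shared words, and only 3 tested members lie at 50% or more.

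The 10 libraries held 115666 to 2473749 estimated reads in genes with a symbol, and NAC 3 (115666) and NAC 2 (507396) were the shallowest. In them 85.1% and 84.8% of tested genes had a read, and in the other 8 libraries 97.7% to 99.5% did. The 14 granulosa markers, all detected, summed to 8408 to 23133 CPM (reads scaled to library size) in NAC and 14145 to 42785 in saline. Of the 20 oocyte markers 19 were detected (Sohlh1 had no read), with sums of 397 to 2413 CPM in NAC and 2.22 to 2540 in saline, and the 8 stroma markers summed to 88.6 to 1915 and 110 to 968. The 6 endothelial markers, all with reads and 3 of them past the low-count filter, summed to 48.3 to 180 CPM in NAC and 9.01 to 44.1 in saline. Their groups only just did not overlap, since the 48.3 CPM were in NAC 3, where 3 reads correspond to 24.2 CPM. In captured tissue a different mix of cells and a different amount of RNA per cell cannot be told apart.

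The members were expressed at low levels. Together they took 66 estimated reads in NAC 3, 340 in NAC 2, and 439 to 907 in the other 8 libraries, and reads were assigned to 30 members in NAC 3, 36 in NAC 2 and 47 to 57 elsewhere. Over all libraries 18 members had fewer than 20 reads. A level of 3 reads, the limit that a count of 0 allows, corresponds to 24.2 CPM in NAC 3, 6.14 in NAC 2 and 1.33 to 2.16 in the other libraries, for counting error only. Of the 64 members 29 passed the low-count filter and 35 did not.

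Per length, Zfp950 had the highest mean of the members, 44.1 TPM (abundance scaled for transcript length and library) over the 10 libraries. That mean includes the NAC libraries on which it was picked (mean 76.9 TPM). Over the saline libraries alone Zfp950 (22.2 TPM) and Zfp945 (21.9) were nearly level. Zfp945 followed with 28.1 TPM, Zfp932 with 15.8, Zfp956 with 12.6, Zfp934 with 12.2 and Zfp991 with 11.7. The places of Zfp932 and Zfp934 rest on single libraries, since the means were 6.57 TPM in Zfp932 without NAC 2 and 6.81 in Zfp934 without NAC 3. Zfp991 had 52.6 TPM in saline 1, from 18 reads, against a saline median of 4.51 TPM. Of its 31-base words 88.0% occur in other genes, so its place is uncertain too. TPM of these genes also depends on the deposited lengths. By mean CPM over all libraries the order was Zfp950, Zfp956, Zfp945, Zfp961, Zfp937, Zfp942, Zfp975 and Zfp932. The last places rest on NAC 2, without which the mean fell from 12 to 6.03 CPM in Zfp975 and from 11.3 to 6.14 in Zfp932. Over the saline libraries alone Zfp961 (20.3 CPM) stood above Zfp945 (15.2), and Zfp940 (9.10), Zfp952 (9.07), Zfp930 (8.49) and Zfp964 (8.36) above Zfp932 (6.12) and Zfp975 (5.32). Zfp950 alone took 12.1% to 17.1% of the members' reads in the NAC libraries and 7.42% to 11.8% in the saline libraries.

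Zfp950 (ENSMUSG00000074733, GRCm38 chromosome 19, 61053840 to 61140840, minus strand) is the gene the set was picked on. It shares no exon base with another annotated gene, but its estimate was not a whole number in 8 of the 10 libraries. Some of its reads may therefore be split with other genes. Zfp950 had 87, 57, 8 and 155 estimated reads in NAC 1 to 4, and 53, 59, 39, 60, 54 and 67 in saline 1 to 6. Scaled to library size with trimmed-mean (TMM) factors, this was 62.8, 117, 64.4 and 83.2 CPM in NAC, and 36.7, 27.8, 17.6, 29.3, 27.7 and 29.8 CPM in saline. Every NAC library was above every saline library in CPM, and the NAC libraries with the most reads, 1 and 4, were among them. The NAC libraries averaged 81.8 ± 25.1 CPM (SD, n = 4), the saline libraries 28.1 ± 6.15 (SD, n = 6), and the fitted log2 fold was 1.55 (SE 0.33). Without NAC 2 and NAC 3 the log2 fold was 1.38. In saline 4 and saline 2, which had the most oocyte marker reads of the saline group (2540 and 989 CPM), Zfp950 stood at 29.3 and 27.8 CPM, inside the range of the other saline libraries. Oocyte marker sums were 2.22 to 42.4 CPM in those other saline libraries and 397 to 2413 CPM in NAC. The part of oocyte RNA in the value of Zfp950 was not tested. The endothelial marker sums only just did not overlap between groups, and their part in the value of Zfp950 was not tested.

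On the TPM scale the groups overlapped. Zfp950 had 58.3, 161, 20.5 and 68.1 TPM in NAC 1 to 4 and 10.8 to 29 TPM in saline, with a median of 25.3. NAC 3 therefore fell inside the saline range. The length listed for Zfp950, which enters TPM, was 478.5 bases in NAC 3, 131.9 in NAC 2 and 165.4 to 414.3 in the other libraries, while its longest annotated transcript has 4825 bases. The fingers and GC content given for Zfp950 are those of its longest coding sequence and longest transcript. Which of its transcripts carried the reads was not examined.

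**Figure D2:**
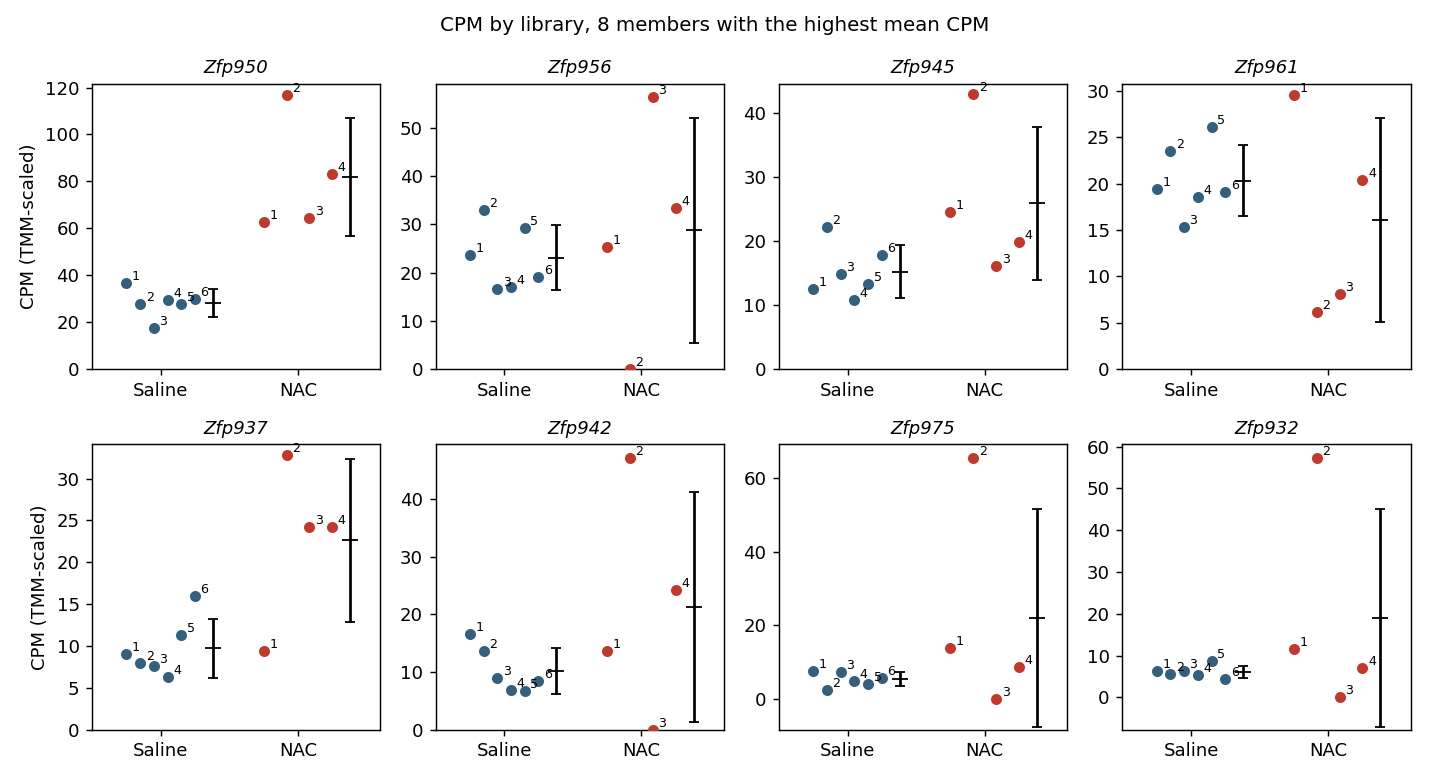
CPM (TMM-scaled) by library for the 8 members with the highest mean CPM, with saline in blue and NAC in red. Numbers are the replicates of the labels, and black bars show the group mean and SD. Only Zfp950 separates the groups, and in Zfp950, Zfp945, Zfp937, Zfp942, Zfp975 and Zfp932 NAC 2 is the highest library.

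The next most abundant members did not separate the groups. Zfp956 (chromosome 6, 47953390 to 47965300), the member with the highest GC content, had 25.2, 0, 56.4 and 33.3 CPM in NAC and a median of 21.3 (16.7 to 33.0) in saline, and its 0 in NAC 2 was the lowest value (log2 fold 0.18, SE 0.64). Zfp945 (chromosome 17, 22846697 to 22867134), which has 18 fingers and a GC content of 35.9%, close to that of Zfp950, had 24.5, 43.0, 16.1 and 19.9 CPM in NAC and a median of 14.1 (10.7 to 22.1) in saline. NAC 1 and NAC 2 lay above the saline range and NAC 3 and NAC 4 within it (log2 fold 0.79, SE 0.46). The NAC 3 value of Zfp945 was only 2 reads. Zfp961 (chromosome 8, 71951038 to 71993792) had 29.6, 6.14, 8.05 and 20.4 CPM in NAC and a median of 19.3 (15.3 to 26.1) in saline. Here NAC 2 and NAC 3, with 3 reads and 1 read, were the lowest, and the log2 fold of -0.20 (SE 0.50) was 0.29 without them.

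Zfp937 (chromosome 2, 150218073 to 150240725), which shares 40.4% of its words with Zfp442, had 9.38, 32.8, 24.2 and 24.2 CPM in NAC and a median of 8.50 (6.35 to 16) in saline. All NAC libraries other than NAC 1 exceeded the saline range, and the log2 fold was 1.18 (SE 0.55). Zfp942 (chromosome 17, 21926960 to 21962464) had 13.7, 47.1, 0 and 24.2 CPM in NAC and a median of 8.73 (6.66 to 16.6) in saline, so that NAC held both the highest and the lowest library. Its log2 fold was 1.16 (SE 0.63).

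Among the members with the highest fitted folds, Zfp975, Zfp932 and Zfp934 moved most when 1 shallow library was left out. Zfp975 (chromosome 7, 42660105 to 42692742) had 13.7, 65.5, 0 and 8.59 CPM in NAC and a median of 5.33 (2.35 to 7.62) in saline. Its log2 fold of 2.10 (SE 0.76) was the highest of the set, and it was 0.77 without NAC 2 alone. Zfp932 (chromosome 5, 109996521 to 110010411) had 11.5, 57.3, 0 and 6.98 CPM in NAC and a median of 5.94 (4.45 to 8.71) in saline, with a log2 fold of 1.69 (SE 0.74) that was 0.33 without NAC 2. In both genes NAC 1 was above the saline range and NAC 3 had no read, and NAC 4 was just above the range in Zfp975 and within it in Zfp932.

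Zfp946 (chromosome 17, 22424222 to 22456689) had 9.38, 34.8, 16.1 and 10.2 CPM in NAC and a median of 2.63 (0.445 to 12.7) in saline, with a log2 fold of 1.79 (SE 0.83). Its highest saline library was inside the NAC range, and the value was 1.15 without NAC 2. The 16.1 CPM of NAC 3 were only 2 reads. Zfp934 (chromosome 13, 62479827 to 62571199) had 6.49, 12.3, 48.3 and 10.2 CPM in NAC and a median of 4.13 (2.35 to 10.7) in saline (log2 fold 1.68, SE 0.77). The 48.3 CPM of NAC 3 were 6 reads, and without that library the log2 fold was 0.88. Zfp960 (chromosome 17, 17064113 to 17089628) had 6.49, 16.4, 32.2 and 15.0 CPM in NAC and a median of 4.82 (2.93 to 9.0) in saline (log2 fold 1.6, SE 0.69, and at least 1.21 with any 1 library left out). Only NAC 1 lay within the saline range, but most of this gene's sequence is shared with Zfp97.

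The lowest folds were near 0. Zfp952 (chromosome 17, 32993129 to 33005457) had a log2 fold of -0.29 (SE 0.88), from 6.37 ± 5.54 CPM across NAC (SD, n = 4) against 9.07 ± 6.83 across saline (SD, n = 6). Zfp944 had -0.20 (SE 0.73), Zfp943 -0.11 (SE 0.75), Zfp993 0.06 (SE 0.91) and Zfp959 0.11 (SE 0.91). None of these values exceeded its own SE, and the signs of Zfp952, Zfp944, Zfp943, Zfp993 and Zfp959 each turned under at least 2 alternatives. Zfp944 and Zfp943, which lie in the same stretch of chromosome 17, stood at 4.10 to 8.05 CPM in all 4 NAC libraries and 2.77 to 9.69 in saline. Both ends of that NAC range rest on few reads, since each gene had 2 reads in NAC 2 (4.10 CPM) and 1 read in NAC 3 (8.05 CPM).

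Of the 29 tested members, 25 had a positive log2 fold and 4 a negative one, with a range of -0.29 to 2.10 and a median of 0.80. Of all tested genes 51% were positive, with a median of 0.02. The median was 0.80 without Zfp950 as well (28 members). These counts describe members that passed a filter on reads and were picked on this contrast, and they support nothing further. By edgeR's quasi-likelihood test 0 of the 29 passed an adjusted p under 0.05, where 0.0731% of all tested genes passed (0.0183% higher in NAC). At an unadjusted p under 0.05 there were 7, all higher in NAC, where 7.82% of all tested genes were higher at that level and 16.2% changed in either direction. DESeq2 called 1 member, where it called 4.16% of all tested genes. The groups did not overlap, with NAC higher, in 1 member (Zfp950), where this held for 1.96% of all tested genes, and with NAC lower in 0, where it held for 3.43%.

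**Figure D3:**
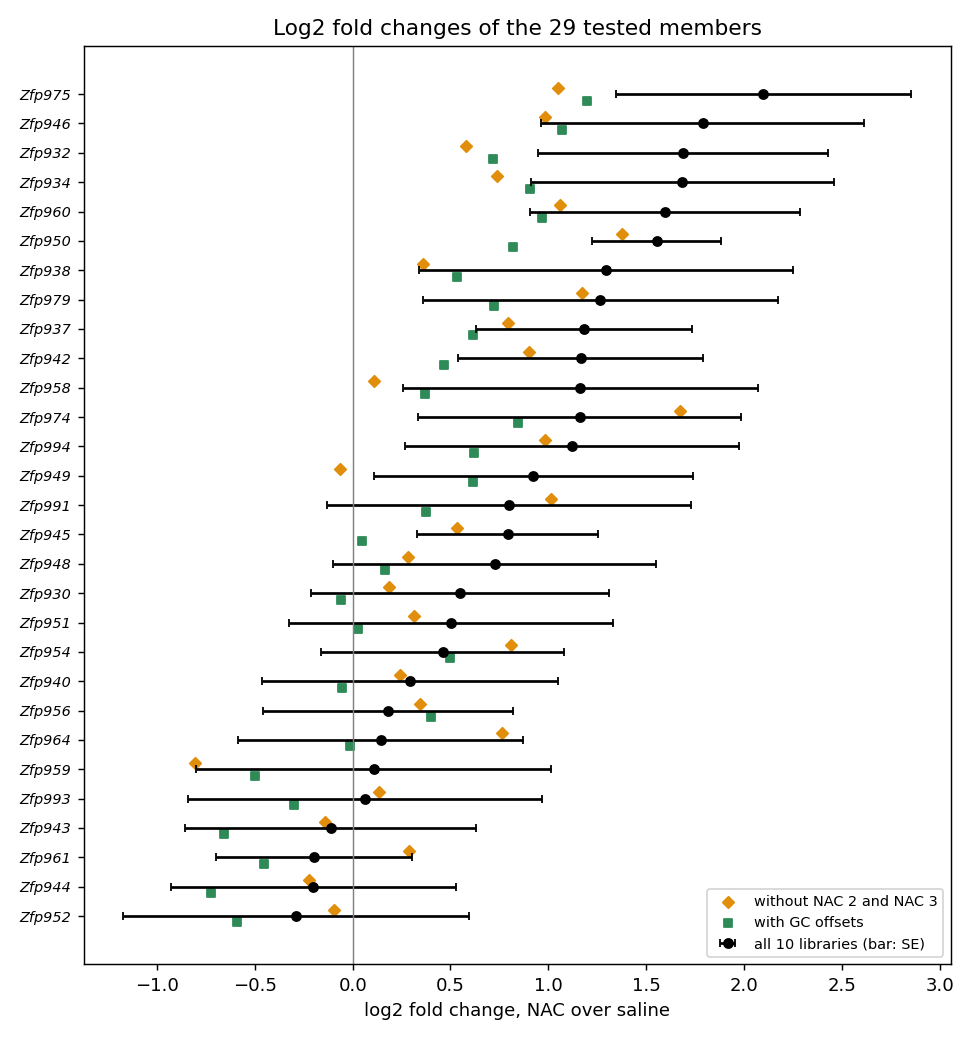
Log2 fold change of NAC over saline for the 29 tested members (horizontal axis), ordered by value. Black points with SE bars use all 10 libraries, orange diamonds leave out NAC 2 and NAC 3, and green squares use offsets for GC content. SEs run from 0.33 for Zfp950 to 0.95, and most orange and green symbols lie to the left of the black points in the upper part of the plot.

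The members' median log2 fold of 0.80 was lower when NAC 2, NAC 3 or both were left out, but stayed above 0. Of the 29 tested members 12 had their highest CPM in NAC 2 and 6 in NAC 3, and in the same libraries 4 and 7 had no read. The matching shares over all tested genes are not given here, so these counts only describe the members. With both left out, 24 members were positive and the median log2 fold was 0.53, against -0.0034 over all genes. Without NAC 2 alone the median was 0.47, and without NAC 3 alone 0.68. With both left out, Zfp949, Zfp959 and Zfp961 changed sign, the last of them upward. The value was lower by more than 0.5 on the log2 scale in 9 members and higher by more than 0.5 in 2, Zfp964 and Zfp974. Zfp932 had 0.58, Zfp934 0.74, Zfp975 1.05, Zfp946 0.98, Zfp960 1.06 and Zfp950 1.38 in this fit. Zfp950 was thus below Zfp974 (1.67), a member with 21 fingers that had 0 reads in NAC 2.

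GC content moved with the comparison. When the tested genes with a GC value were divided by transcript GC content into 4 classes of equal size, the median log2 fold was 0.44 in the lowest class (31% to 44.6% GC), 0.15 and -0.18 in the middle classes and -0.41 in the highest. Of the 29 tested members 26 were in the lowest class, where their median was 0.96. Without NAC 2 and NAC 3 the median of that class was 0.12 over all genes and 0.56 over the members. With offsets for each library's GC trend, centred to carry no library level, the members had a median of 0.40 (20 positive) against -0.02 over all genes. In that fit Zfp950 had a log2 fold of 0.82, Zfp945 of 0.05 and Zfp975 of 1.20, the highest. GC content here is that of each gene's longest transcript, which need not be the sequence that carried the reads. The part of GC content in each member's value was not tested beyond this fit.

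**Figure D4:**
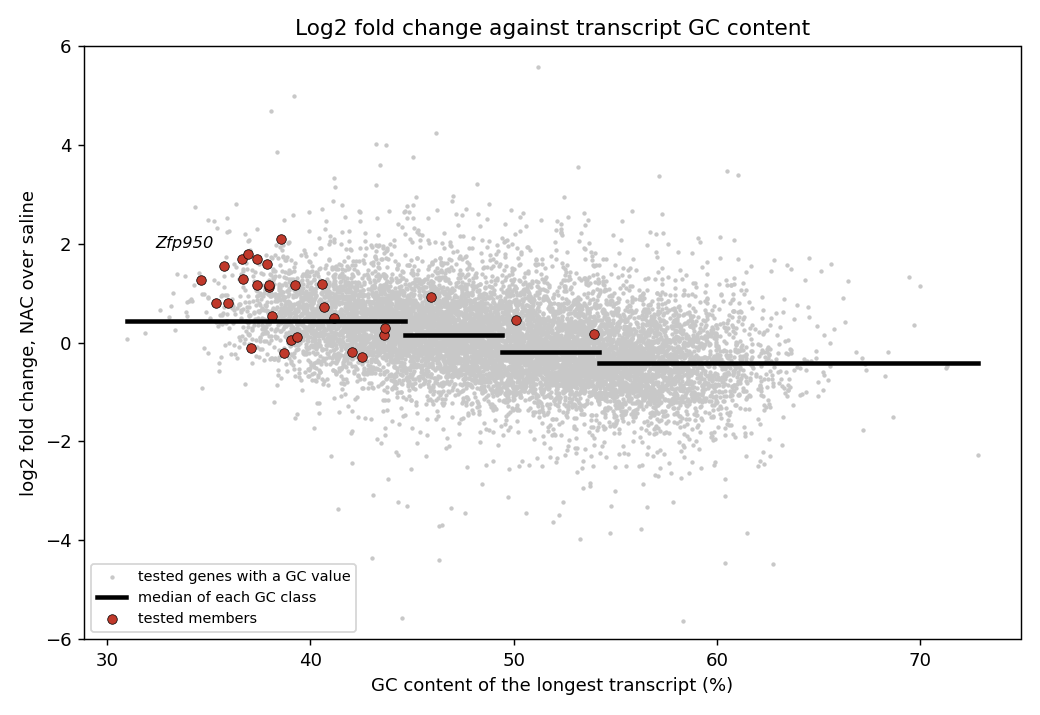
Log2 fold change of NAC over saline (vertical axis) against GC content of the longest transcript (horizontal axis, %) for the 10851 tested genes with a GC value (grey) and the tested members (red). Black lines are medians of the 4 GC classes, which fall from 0.44 to -0.41, and 26 members lie in the lowest class. The axis leaves out 4 of these genes beyond a log2 fold of 6.

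The members and the genes of low GC content can also be followed by library. On the scale of log2(CPM + 2) relative to each gene's mean, the median tested member stood at 0.26, 0.78, 0.59 and 0.44 in NAC 1 to 4 and between -0.46 and 0.14 in saline. The median gene of the lowest GC class stood at 0.00, 0.68, 0.30 and 0.06 in NAC 1 to 4 and between -0.24 and 0.03 in saline. The members' median was above all saline libraries in each NAC library, and that of the low-GC genes in NAC 2, NAC 3 and NAC 4. In NAC 4 the median low-GC gene was only just above, at 0.06 against at most 0.03 in saline. The members were picked on this contrast and passed a filter on reads, so these values only describe them.

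The other 309 genes named Zfp with a number gave a smaller shift. Of these, 219 were tested and 137 were positive, with a median log2 fold of 0.21 and a median GC content of 46.6%. The 89 of these in the lowest GC class had a median of 0.53. On the log2(TPM + 0.1) scale 101 were positive, with a median of -0.11. The difference between these genes and the members was not tested.

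The name range itself is arbitrary. Zfp955a and Zfp955b fall outside it only through their letter. Zfp955b had 13.0, 55.3, 8.05 and 3.76 CPM in NAC and a median of 6.94 (0 to 16.5) in saline, again with NAC 2 highest. Zfp955a had 0.721, 10.2, 8.05 and 0 CPM in NAC and a median of 3.22 in saline. Zfp955a shares 66.0% of its 31-base words with Zfp955b, and Zfp955b 40.0% with Zfp955a, so reads may be split between them. The nearest lower number in the tables, Zfp882, had 11 reads in NAC 4 and none in the other NAC libraries, and a median of 2.46 CPM in saline.

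Summing neighbouring members reduces the effect of reads split between members of the same sum. It does not recover reads split with genes outside the name range, such as Gm49359 for Zfp935 (99.2% of its words) or Zfp600 for Zfp978 (63.2%). With members on one chromosome joined when their starts lay less than 3000000 bases apart, 48 members fell into 7 clusters and 16 stood alone. The 16 members on chromosome 4 (145510759 to 147848366) shared a median of 74.1% of their words with other genes and had only 3 tested members. Their summed CPM was 31 to 96.7 in NAC and 14.9 to 54.2 in saline, which overlap. The 10 members at the end of chromosome 2 (175372436 to 178078476), none of them tested, had 167 reads in all. Their sum was 15.0 to 20.5 CPM in NAC and 4.39 to 15.2 in saline, so the groups touched. The NAC libraries had 16.6, 20.5, 16.1 and 15.0 CPM there. The 16.1 CPM of NAC 3 were 2 reads of Zfp970, below the 24.2 CPM of 3 reads in that library, so its place among them cannot be read. The 10 members on chromosome 17 from 21567008 to 22867134 had 70.0 to 164 CPM in NAC and 41.5 to 85.7 in saline. The 4 on chromosome 8 (69209038 to 71993792), whose median GC content is 42.6%, summed to 42.2 ± 18.5 CPM across NAC (SD, n = 4) against 40.1 ± 6.41 across saline (SD, n = 6).

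**Figure D5:**
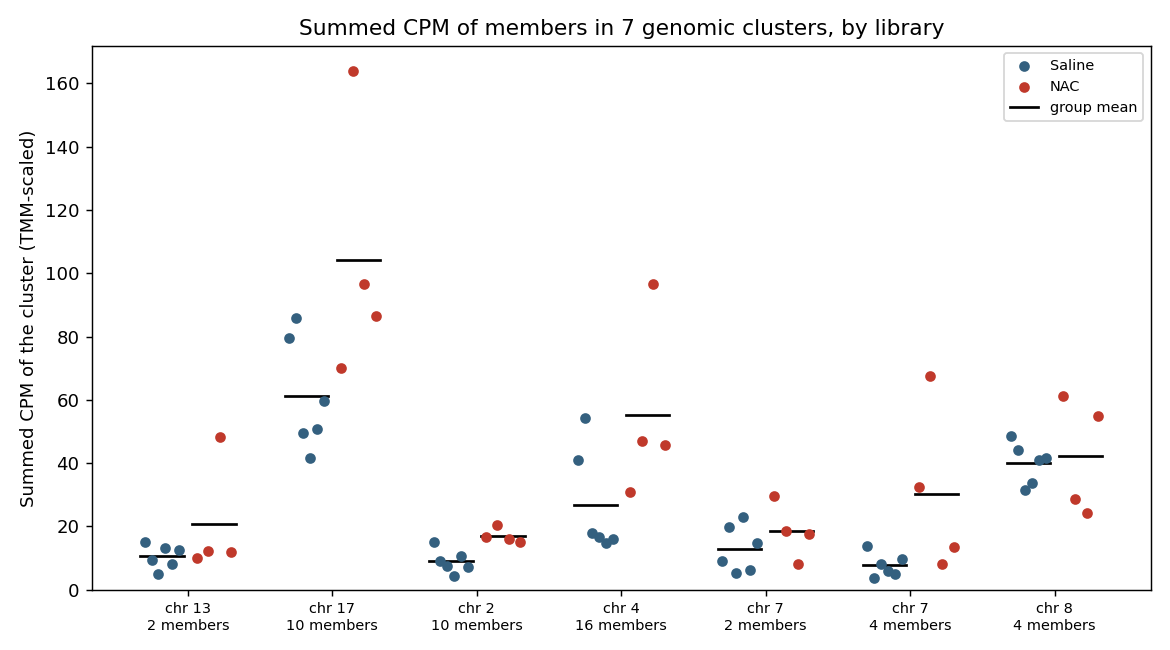
Summed CPM of the members in each of 7 genomic clusters (horizontal axis, chromosome and number of members), by library, with saline in blue, NAC in red and group means as black lines. The NAC points exceed most saline points on chromosomes 2, 4 and 17, and the group means are close on chromosome 8 (42.2 and 40.1).

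Over all 64 members the summed level was 411, 696, 532 and 487 CPM in NAC 1 to 4 and 198 to 379 CPM in saline. Without Zfp950 it was 348, 579, 467 and 404 CPM in NAC and 180 to 347 in saline. NAC 1 and saline 2, the closest libraries without Zfp950, differed by less than 2 CPM, so that the groups only just did not overlap. The sums describe a set picked on this contrast and support nothing further.

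Among members that did not pass the filter, some had lower values in NAC. Zfp995 averaged 1.32 ± 1.01 CPM across NAC (SD, n = 4) against 5.37 ± 3.51 across saline (SD, n = 6), and Zfp935, whose words are all shared with other genes, averaged 1.30 ± 1.71 and 5.61 ± 3.70. Others had higher values, such as Zfp976 with 7.62 ± 7.99 and 2.04 ± 2.29, and Zfp970 with 7.06 ± 6.78 and 0.82 ± 0.82. These genes were named after their values were seen, and in each the larger of the group SDs was close to or above the difference of the means.

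Promoter windows from RefSeq (GRCm38.p6, 250 bases before to 50 after a start) were found for 54 of the 64 members. The window of Zfp950, chr19:61140791-61141090 on the minus strand, is shown because it is the gene the set turns on. Capitals mark the 2 matches to CCAAT, read on either strand, a motif bound by the factor NF-Y.
Zfp950 promoter: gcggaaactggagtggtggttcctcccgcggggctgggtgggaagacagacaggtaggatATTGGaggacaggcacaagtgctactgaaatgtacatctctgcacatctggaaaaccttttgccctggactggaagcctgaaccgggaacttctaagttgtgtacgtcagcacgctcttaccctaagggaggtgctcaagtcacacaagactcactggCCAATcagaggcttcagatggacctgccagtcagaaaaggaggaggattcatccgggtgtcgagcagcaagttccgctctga

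CCAAT was found in a window of 41 of the 54 members (75.9%), against 41.1% of all genes with a window, 42.3% of protein-coding genes and 47.6% of the other Zfp genes. By window, it was in 77.4% of the members' windows and 37.4% of all windows of the same length. Members that arose by duplication share promoter sequence, so they are not independent, and the share is a description. The core of the hypoxia response element, ACGTG, was in 24.1% of members and 21.8% of all genes, and the antioxidant response core, TGACNNNGC, in 16.7% and 14.0%, with 22.4% and 15.2% of the other Zfp genes, both read on either strand. Zfp950 held neither. The FOXO motif GTAAACA was in 0 of the 54 members, 1.2% of the other Zfp genes and 4.05% of all genes.

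Genes whose products act with KRAB zinc finger proteins were read from the same fit. The list of 40 symbols of silencing genes, in which Tasor and Fam208a name the same gene, had 39 in the tables and 36 tested. It includes a few KRAB zinc finger genes outside the name range. Trim28, which encodes the scaffold that KRAB domains bind, had 423, 111, 282 and 400 CPM in NAC and 376 to 601 in saline, with NAC 2 lowest (log2 fold -0.73, SE 0.32, edgeR adjusted p = 0.275). Its log2 fold was -0.31 without NAC 2 and NAC 3 and -0.09 with GC offsets. Setdb1, the methyltransferase recruited by TRIM28, had 129, 172, 80.5 and 92.9 CPM in NAC and 50.2 to 79.6 in saline. Its groups were apart only by the gap between NAC 3 (80.5 CPM) and saline 1 (79.6). That gap is smaller than the 8.05 CPM of 1 read in NAC 3, so the separation cannot be relied on. Of all tested genes 1.96% had groups apart with NAC higher. For Setdb1 the fit gave 0.98 on the log2 scale, with an SE of 0.28 and an adjusted p of 0.119 by edgeR. With GC offsets its value was 0.89.

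Atrx, a chromatin remodeller that helps silence repeats, had the smallest p of the list, at 405 ± 86.3 CPM across NAC (SD, n = 4) against 202 ± 45.4 across saline (SD, n = 6). Its fitted value was 1.00 on the log2 scale, with an SE of 0.25 and an adjusted p of 0.0959 by edgeR, and 0.45 with GC offsets. Mphosph8, a subunit of the HUSH silencing complex, had a log2 fold of 0.84 (SE 0.30), Morc2a, an ATPase that acts with HUSH, of 1.03 (SE 0.39), and Zfp809, a KRAB zinc finger gene that silences retroviruses, of 1.24 (SE 0.49). None of the 36 passed edgeR's adjusted threshold. At an unadjusted p under 0.05 there were 9, of which 7 were higher and 2 lower in NAC, where 16.2% of all tested genes were at that level (7.82% higher). DESeq2 called 2, Atrx and Setdb1, where it called 4.16% of all tested genes. In all, 21 were positive and 15 negative, with a median of 0.12 beside 0.02 over all genes, and 14 were positive with GC offsets.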

How the data were processed

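The authors deposited 1 gene table for each library. The submitters' processing notes name Salmon, without a version, and GRCm38. Each table holds estimated counts (reads assigned to a gene, not always whole), TPM and lengths, per the file headers. Of 36635 rows 35087 carry a symbol, and the others (0.496% to 0.638% of estimated reads) were left out. Estimated counts were rounded and fitted over the whole table with edgeR 4.0.16 in R 4.3.3 (default filter, TMM factors, robust quasi-likelihood test), with Benjamini-Hochberg adjustment over 10945 genes and a threshold of 0.05. CPM use the TMM-scaled totals. Log2 folds are NAC over saline, and the SE is derived from the test statistic. The fit was tested on simulated data.

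Alternatives were DESeq2 1.42.0, limma 3.58.1 on log2(TPM + 1) and log2(TPM + 0.1), RLE factors, unscaled library totals, other filters, the replicate number as a block, libraries left out, GC offsets and thinning. Members and lists were chosen with earlier results of these data known. Named genes are Zfp950, the 8 members with the highest mean CPM, the 6 with the highest and the 6 with the lowest log2 fold, close copies, genes just outside the name range, Trim28, Setdb1 and the 4 other silencing genes with the smallest p. Theca, smooth muscle, immune, surface epithelium and blood marker sums were also computed, with ranges over NAC and saline of 137 to 526 and 66.7 to 229, 0 to 649 and 3.16 to 285, 0 to 26.6 and 0 to 19.3, 65.5 to 211 and 146 to 334, and 0 to 393 and 3.07 to 55.6 CPM. Close copies (at least 95% identity over at least 50% of the longest transcript, BLAST 2.17.0) were found for 21 members, of which 4 were tested (Zfp932, Zfp960, Zfp991 and Zfp993). Amplified reads carry no molecular identifiers here, so limits from read numbers cover counting error only.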

Additional observations from a re-analysis of the deposited data

Results flagged for a closer look

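In Zfp934, 2 values stood far from the rest of their group among 46 groups of libraries checked, and chance alone flags about 1 in 20 such groups. The gene had 48.3 CPM in NAC 3, where the other NAC libraries had 6.49 to 12.3. It also had 10.7 CPM in saline 6, where the other saline libraries had 2.35 to 5.37. The NAC 3 value rests on 6 reads, and 45.0% of the gene's 31-base words occur in other genes.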

How the results depend on the processing

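The count of 0 called members became 1 with DESeq2 and with no low-count filter, and 0 to 1 with each library left out; the gene was Zfp950 each time, in the last case without NAC 1. The median log2 fold of the tested members was 0.80, 0.53 without NAC 2 and NAC 3, 0.40 with centred GC offsets, and 0.47 (without NAC 2) to 1.09 (without saline 1) with each library left out. Called silencing genes went from 0 to 2 with DESeq2 and stayed at 0 with each library left out. Zfp950 kept a positive log2 fold in all 21 alternatives, at 1.34 to 1.79 in 20 of them and 0.82 with GC offsets. Positive members numbered 25 of 29 in the main fit, 21 on log2(TPM + 1), 18 on log2(TPM + 0.1), 19 with thinning, and 27 with library size alone, which moved the median of all genes to 0.19, while log2(TPM + 0.1) moved it to -0.14. Genes called over the whole table went from 8 to 455 with DESeq2, 226 with no filter, 138 with thinning, 13 on log2(TPM + 1), 2 without NAC 2 and NAC 3, and 1 to 56 with each library left out. The replicate numbers did not pair the libraries (correlations of same-numbered deviations of -0.0081, 0.0105, 0.0093 and 0.196). With the replicate block 0 members and 0 silencing genes were called, the members' median was 0.76 and 1 gene was called over the whole table. Depth limits NAC 3 most, where 7 tested members had no read.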
